A study of Mus musculus with 9 samples.

Results

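The 5 genes described here encode zinc-finger transcription factors that are known in spermatogonia, the 4 spalt-like genes Sall1, Sall2, Sall3 and Sall4 and the gene Zbtb16, whose protein is PLZF. They were chosen by name, as 5 of the 46078 genes counted, and followed at 0 h, 24 h and 48 h of differentiation. The cells were EGFP-SSC, a single wild-type mouse spermatogonial stem cell (SSC) line that expresses green fluorescent protein. The 0 h group was in normal culture, on feeder layers of mouse embryonic fibroblasts treated with mitomycin C and with the growth factors GDNF, bFGF and EGF. For the 24 h and 48 h groups, EGFP-SSCs were joined 1:1 by testicular somatic cells of busulfan-treated mice at 3 to 7 days after birth, in a medium with retinoic acid, BMP-4, BMP-7, activin A, testosterone and follicle-stimulating hormone, and EGFP-positive cells were then sorted by flow cytometry. Poly-A RNA of 3 biological replicates per time was sequenced. Time, medium, feeders and co-culture change together between 0 h and the later groups, so their parts in a difference cannot be told apart.

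SALL proteins carry pairs of zinc fingers and recruit the NuRD complex through a short motif at their N-terminus. This complex remodels nucleosomes and removes acetyl groups from histones. AT-rich DNA is bound by SALL4 through such fingers. SALL4 is a factor of pluripotent cells and of spermatogonia, SALL1 and SALL3 are better known from the kidney, limb and nervous system, and SALL2 is the most divergent member of the family. PLZF is a repressor with a BTB domain that pairs it with itself and recruits corepressors, and in the testis it marks undifferentiated spermatogonia and maintains the stem cell pool. SALL4 and PLZF are known to bind each other, and Kit, the receptor of differentiating spermatogonia, is a gene that PLZF has been described to repress.

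The libraries held 16825251 to 22201892 counts on genes, and no 2 replicates agreed within sampling noise. Replicates differed most at 0 h, where the chi-square per degree of freedom between 2 libraries was 39.9 to 91.8. It was 8.74 to 14.8 at 24 h and 7.85 to 29.0 at 48 h. Levels are CPM, counts scaled to the library total with TMM factors, given in the order of replicates 1, 2 and 3 and as mean ± SD (n = 3), and they compare a gene with itself only. Fold changes and adjusted p-values come from edgeR's quasi-likelihood test over the 6 libraries of a comparison, with Benjamini-Hochberg adjustment over all genes tested, and a gene is called at an adjusted p of up to 0.05. Summed markers of germ cells (Ddx4, Dazl and 5 more genes) ran from 1600 to 2920 CPM at 0 h, from 2215 to 2501 CPM after 24 h, and from 2426 to 2792 CPM after 48 h. The summed list of undifferentiated spermatogonia, 12 genes with Gfra1, Etv5 and Id4, fell from 1595 to 1832 CPM at 0 h to 188 to 219 CPM at 48 h. At 48 h against 0 h, 10 of these genes were called lower, Utf1 was called higher, and Neurog3 was not called. Together, 7 markers of fibroblasts or stromal cells ran from 267 to 371 CPM at 0 h to 2920 to 3240 CPM at 48 h. Col1a1 and Col1a2 were the highest of them at 48 h, with means of 1402 and 944 CPM. At each later time against 0 h, 5 of the 7 were called higher and 2 were not called. Those not called were Dcn and Lum at 24 h and Pdgfra and Lum at 48 h. The summed markers of peritubular myoid cells ran from 13.7 to 15.6 CPM at 0 h to 263 to 321 CPM at 48 h, those of Sertoli cells from 23.8 to 25.0 to 93.6 to 109, and those of Leydig cells from 4.48 to 6.79 to 25.2 to 32.6. In the myoid list 5 of 6 genes were called higher at both later times against 0 h, and Des was not called. In the Leydig list 2 of the 3 genes tested were called higher at 24 h and 3 at 48 h. Of 8 Sertoli genes tested, 6 were called higher at both later times against 0 h. Rhox5 was called lower at both times and Sox9 at 24 h. Clu was the most abundant of the Sertoli list at 48 h, with a mean of 56.2 CPM. Fshr of the Sertoli list and Hsd3b1 and Insl3 of the Leydig list were at 0 in each 0 h library. Summed endothelial markers ran the other way, from 43.3 to 47.2 CPM at 0 h to 14.4 to 18.9 at 24 h. After 48 h their sum was 12.3 to 12.8 CPM. Kdr and Pecam1 were the highest at 0 h (24.6 and 15.7 CPM), and Emcn was at 0 there. Of the 4 endothelial genes tested, Kdr and Pecam1 were called lower at both later times against 0 h. Tek was called higher at both (log2 fold changes 1.31 and 1.53), and Cdh5 was not called. Summed macrophage markers ran from 16.1 to 17.8 CPM at 0 h and from 6.73 to 11.9 CPM at 24 h, where Cd68 was called lower while Csf1r and Cd14, at 1.08 and 1.63 CPM, were called higher. The part of other cell types in the results below was not tested.

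Sall3 fell furthest of the 5 genes, Sall1 and Sall2 fell less far, Sall4 was higher at 24 h, and Zbtb16 was called lower at 48 h but not at 24 h. At 24 h against 0 h, 3 members were called lower and 1 higher, against 25.5% of the 17592 genes tested that were called in either direction (14.2% lower and 11.4% higher). At 48 h against 0 h, 4 were called lower, against 31.6% of 17755 genes (18.5% lower and 13.0% higher). Between 24 h and 48 h, 1 member was called higher and 2 lower, against 21.3% of 17499 genes. The libraries of the groups did not overlap for 4 of the 5 members at 24 h against 0 h, beside 43.4% of all genes tested, for 5 at 48 h against 0 h, beside 48.3%, and for 3 between 24 h and 48 h, beside 39.6%. The 5 members passed the filter on low counts in each comparison. The 0 h libraries enter both comparisons with 0 h, which are therefore not independent.

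**Figure D1:**
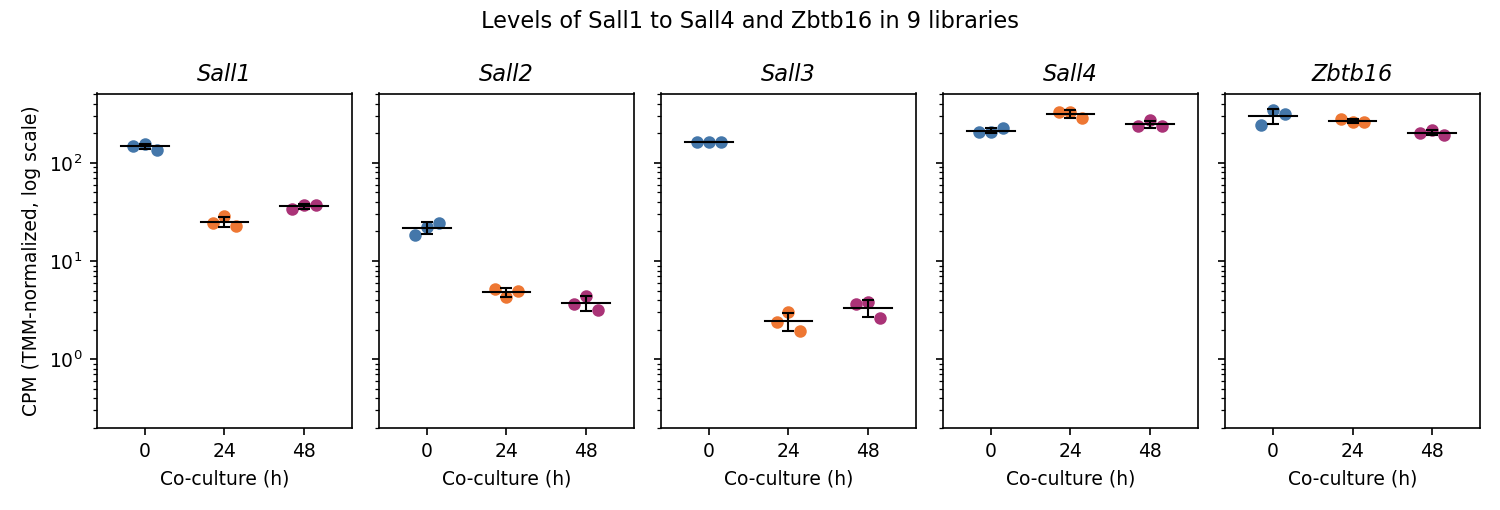
Level of each of the 5 genes in each of the 9 libraries, in CPM on a log axis, by hours of differentiation, with a point for each library, a horizontal line for the mean and error bars of 1 SD (n = 3). Sall3 fell from 162 to 165 CPM at 0 h to 1.95 to 2.99 CPM at 24 h, while the 24 h libraries of Sall4 lie above its 0 h libraries.

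Sall3 (ENSMUSG00000024565), on the minus strand of chromosome 18, had 165, 162 and 164 CPM at 0 h (164 ± 1.03), the tightest replicates of the family. At 24 h it had 2.40, 2.99 and 1.95 CPM (2.45 ± 0.521), which were 49, 56 and 40 counts. At 48 h it had 3.61, 3.82 and 2.63 CPM (3.35 ± 0.635), from 69, 88 and 52 counts. Each later library lies far below each 0 h library, and the later groups overlap. The fall was 66.1-fold at 24 h (log2 fold change -6.05, SE 0.180, adjusted p = 4.9e-06, edgeR), the 31st largest change in either direction among all genes tested, and 48.6-fold at 48 h (-5.60, SE 0.175, adjusted p = 5.7e-06). The difference between 24 h and 48 h was 0.45 on the log2 scale (SE 0.239) and was not called (adjusted p = 0.21, edgeR).

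Sall1 (ENSMUSG00000031665) lies at chr8:89027235-89044162 on the minus strand (GRCm38). It had 149.8, 156 and 136 CPM at 0 h (147 ± 9.98), 24.6, 28.7 and 22.5 CPM at 24 h (25.3 ± 3.15) and 33.8, 37.0 and 37.1 CPM at 48 h (36.0 ± 1.89). The 3 groups do not overlap, with the 24 h libraries the lowest and the 48 h libraries between the other groups. Sall1 was 5.77-fold lower at 24 h than at 0 h (log2 fold change -2.53, SE 0.134, adjusted p = 3.01e-05, edgeR) and 4.09-fold lower at 48 h (-2.03, SE 0.110, adjusted p = 2.6e-05). From 24 h to 48 h it rose 1.41-fold (0.50, SE 0.0992, adjusted p = 0.00801). In the same comparison 6 of the 7 stromal markers were called higher and 1 lower, and the part of stromal cells in the rise of Sall1 was not tested. In bulk RNA, fewer cells of a type and less RNA per cell cannot be told apart.

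Sall2 (ENSMUSG00000049532) lies at chr14:52311172-52328762 on the minus strand and was the least abundant of the 5 genes at 0 h. It had 18.6, 22.3 and 24.5 CPM at 0 h (21.8 ± 2.98), 5.20, 4.27 and 4.93 CPM at 24 h (4.80 ± 0.477) and 3.66, 4.38 and 3.14 CPM at 48 h (3.73 ± 0.626). Each 0 h library lies above each later library, and the later groups overlap. The fall was 4.49-fold at 24 h (log2 fold change -2.17, SE 0.167, adjusted p = 0.000138, edgeR) and 5.83-fold at 48 h (-2.54, SE 0.191, adjusted p = 0.0001). The change from 24 h to 48 h was -0.37 (SE 0.185) and was not called (adjusted p = 0.178, edgeR).

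Promoter windows were at hand for Sall1 and Sall2, 5 windows for 2 of the 5 members, from RefSeq on GRCm38.p6. The annotated starts of the 2 genes differ widely in base composition, and a link to the falls of the genes was not tested. Each line gives the 250 bases before a start on the minus strand, 5′ to 3′, with the CG dinucleotides in capitals. The Sall1 window is chr8:89044163-89044412. The Sall2 windows lie before the outer start, chr14:52328671-52328920, and before the inner start, chr14:52316324-52316573.

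Sall1 window 1: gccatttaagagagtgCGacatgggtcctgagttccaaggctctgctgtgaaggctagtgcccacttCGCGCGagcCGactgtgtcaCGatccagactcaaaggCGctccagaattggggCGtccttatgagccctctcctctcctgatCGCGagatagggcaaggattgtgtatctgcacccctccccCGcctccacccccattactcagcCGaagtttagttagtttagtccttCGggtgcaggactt

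Sall2 window 1: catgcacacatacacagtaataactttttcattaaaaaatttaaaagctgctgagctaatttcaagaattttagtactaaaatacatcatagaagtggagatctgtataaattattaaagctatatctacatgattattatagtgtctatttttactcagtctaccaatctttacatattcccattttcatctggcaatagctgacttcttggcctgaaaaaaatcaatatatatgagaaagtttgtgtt

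Sall2 window 2: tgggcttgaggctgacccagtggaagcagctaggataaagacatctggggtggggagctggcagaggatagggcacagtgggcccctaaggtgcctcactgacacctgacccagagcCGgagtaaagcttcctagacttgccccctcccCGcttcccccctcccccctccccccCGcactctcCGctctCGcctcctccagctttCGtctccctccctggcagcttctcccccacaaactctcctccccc

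The Sall1 window holds 13 CG dinucleotides at 56.4% G and C, and the other Sall1 windows, before starts further inside the gene, hold 25 and 30 at 74.4% and 78.4%. The outer Sall2 window holds 0 at 28%, and the inner Sall2 window 6 at 64.4%. Medians over all 32851 RefSeq windows were 6 CG dinucleotides and 52.4%. On either strand, AGGTCA (the repeat unit of retinoic acid receptor elements) matched 0 of the 5 windows and is in 14% of all windows, and CACGTG (an E-box) also matched 0, against 6.02%. GGAAGT (the core bound by ETS factors) matched 1 Sall1 window that is not printed, 180 bases before its start, against 19.7% of all windows. ATATT, AT-rich like the sequences SALL4 binds, matched the outer Sall2 window at 75 and at 24 bases before the start, against 23.3%. These are matches of letters and are not evidence of binding.

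Sall4 (ENSMUSG00000027547) lies at chr2:168748332-168767943 on the minus strand, and 526 bases of its exons overlap the antisense gene Gm14261. The library kit is not stated to mark the strand, so reads there cannot be assigned to either gene, but Gm14261 had 4 to 30 counts per library against 3291 to 6780 for Sall4. Sall4 had 205, 207 and 226 CPM at 0 h (213 ± 11.7), 333, 330.4 and 285 CPM at 24 h (316 ± 26.8) and 238, 273 and 235 CPM at 48 h (249 ± 21.2). The libraries of any 2 groups do not overlap. Sall4 was 1.501-fold higher at 24 h than at 0 h (log2 fold change 0.59, SE 0.111, adjusted p = 0.0078, edgeR) and 1.28-fold lower at 48 h than at 24 h (-0.36, SE 0.0848, adjusted p = 0.0174). The fall between 24 h and 48 h was no longer called without 24 h replicate 1 or 2 or 48 h replicate 1 or 3 (-0.30 to -0.32, adjusted p up to 0.102, edgeR), and with all 9 libraries in 1 fit (adjusted p = 0.0746). At 48 h against 0 h the difference of 0.23 (SE 0.109) was not called (adjusted p = 0.159, edgeR), although the groups do not overlap.

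Zbtb16 (ENSMUSG00000066687) lies at chr9:48654297-48836222 on the minus strand. It had 242, 348 and 316 CPM at 0 h (302 ± 54.7), 282, 262 and 260.0 CPM at 24 h (268 ± 12.1) and 204, 216 and 190.4 CPM at 48 h (203 ± 12.8). The 0 h libraries span the 24 h libraries, and replicate 1 at 0 h is the lowest of its group. The difference at 24 h was -0.16 on the log2 scale (SE 0.145) and was not called (adjusted p = 0.486, edgeR). Zbtb16 was 1.48-fold lower at 48 h than at 0 h (log2 fold change -0.57, SE 0.147, adjusted p = 0.0238, edgeR) and 1.33-fold lower than at 24 h (-0.41, SE 0.0677, adjusted p = 0.00363). The call at 48 h against 0 h was lost with library size alone as the scaling (-0.46, adjusted p = 0.0533, edgeR) and in 4 of the 6 fits that leave out a library, and that between 24 h and 48 h was lost when 1 fit held the 9 libraries (-0.40, adjusted p = 0.11).

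**Figure D2:**
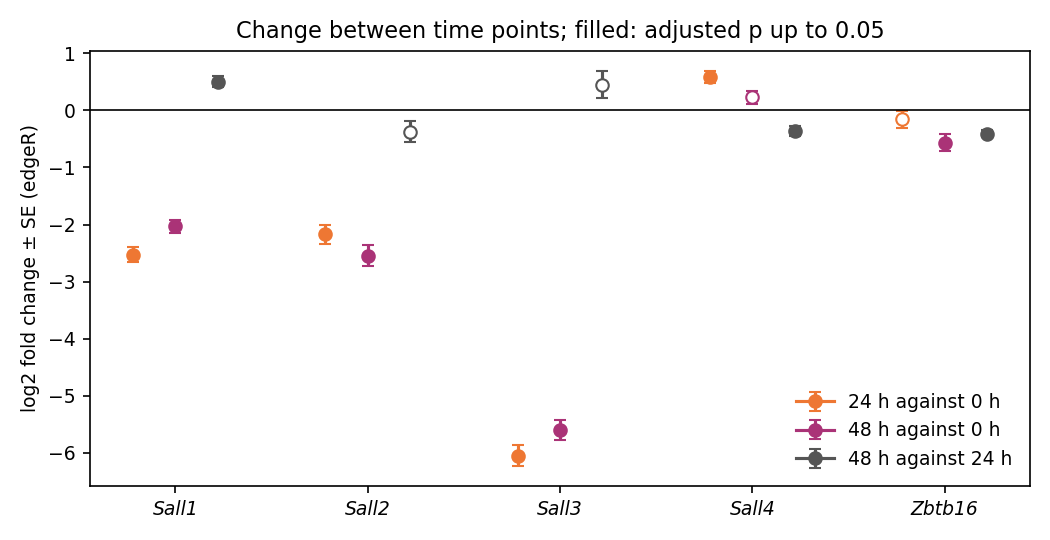
Log2 fold change (y axis, edgeR, with bars of 1 SE) of each of the 5 genes (x axis) in the 3 comparisons (colours), with filled points at an adjusted p of up to 0.05. Against 0 h, Sall1, Sall2 and Sall3 lie far below 0 at both later times, from -2.03 for Sall1 at 48 h to -6.05 for Sall3 at 24 h, while Sall4 and Zbtb16 stay between -0.57 and 0.59.

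To set the genes side by side, levels were divided by exon length (FPKM, computed here). At 0 h Zbtb16 was highest with 57.2 ± 10.4 FPKM, followed by Sall4 (38.4 ± 2.12), Sall1 (28.0 ± 1.90), Sall3 (21.9 ± 0.138) and Sall2 (4.01 ± 0.549), and no neighbours in this order overlapped. At 24 h Sall4 had 57.1 ± 4.84 FPKM and Zbtb16 50.7 ± 2.30, whose ranges overlap although Sall4 was higher in 3 of 3 libraries. With the longest transcript as the length they did not overlap, the lowest Sall4 library having 56.2 FPKM and the highest Zbtb16 library 55.1. Sall1 followed with 4.80 ± 0.598, Sall2 with 0.884 ± 0.0877 and Sall3 with 0.327 ± 0.0697 FPKM. At 48 h the order was Sall4 (44.9 ± 3.83 FPKM), Zbtb16 (38.5 ± 2.43), Sall1 (6.84 ± 0.359), Sall2 (0.686 ± 0.115) and Sall3 (0.448 ± 0.0849), again without overlap of neighbours. Sall3 thus stood above Sall2 at 0 h and below it at both later times.

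The 4 Sall genes summed to 92.2 ± 1.16 FPKM at 0 h, 63.1 ± 5.34 at 24 h and 52.9 ± 4.15 at 48 h. Sall4 held 41.6 ± 1.96% of this sum at 0 h, 90.5 ± 0.494% at 24 h and 84.9 ± 0.673% at 48 h. The share of Sall1 went from 30.3 ± 2.22% to 7.60 ± 0.573% and 13.0 ± 0.915%, and that of Sall3 from 23.7 ± 0.426% to 0.516 ± 0.0768% and 0.846 ± 0.134%. Sall2 held 4.35 ± 0.544%, 1.41 ± 0.206% and 1.29 ± 0.133%. Sall4 was the highest of the 4 genes per length in each of the 9 libraries.

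**Figure D3:**
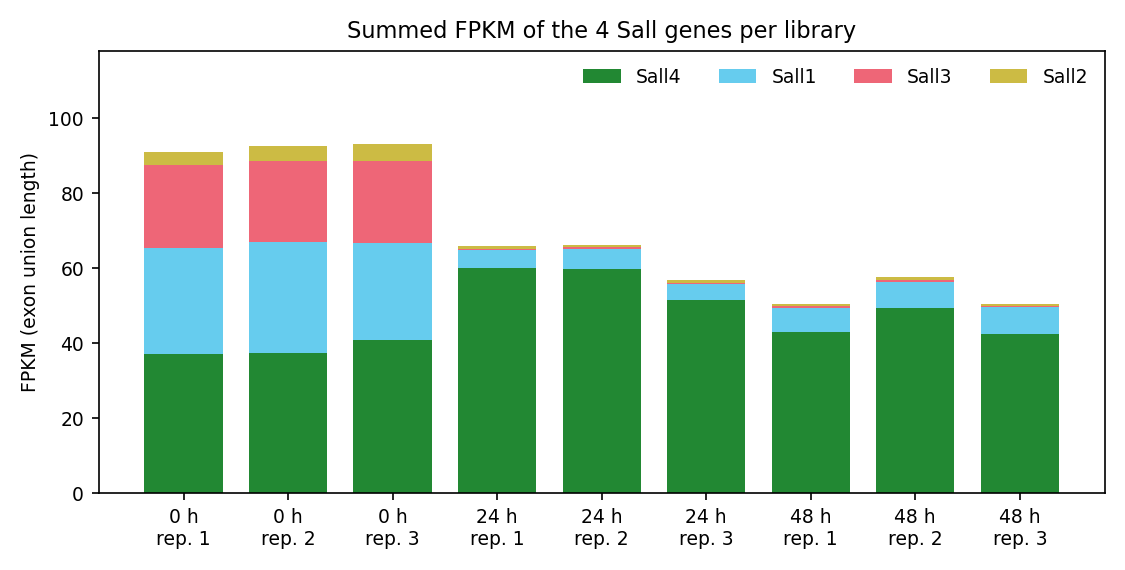
Stacked bars of the FPKM of the 4 Sall genes (y axis) in each of the 9 libraries (x axis), with exon union length. The green part, Sall4, makes up 40.3% to 43.9% at 0 h, 89.99% to 91.0% at 24 h and 84.2% to 85.5% at 48 h.

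The counts of Sall4 and Zbtb16, whose proteins bind each other, were also set against each other within a library, which needs no scaling between libraries. The ratio of Sall4 to Zbtb16 counts was 0.849, 0.593 and 0.715 at 0 h, 1.18, 1.26 and 1.10 at 24 h, and 1.17, 1.26 and 1.24 at 48 h. It is below 1 in each 0 h library and above 1 in each later library. The mean log2 ratio was higher by 0.73 at 24 h and by 0.78 at 48 h than at 0 h, each with p = 0.1 in a two-sided exact permutation test, the smallest p that 3 against 3 libraries allow. Between 24 h and 48 h it differed by 0.05 (p = 0.6, exact permutation test). The ratio of Sall4 to Sall1 counts was 1.37, 1.33 and 1.66 at 0 h, 13.5, 11.5 and 12.7 at 24 h and 7.03, 7.38 and 6.34 at 48 h, with no overlap between groups (p = 0.1 for each pair, exact permutation test).

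**Figure D4:**
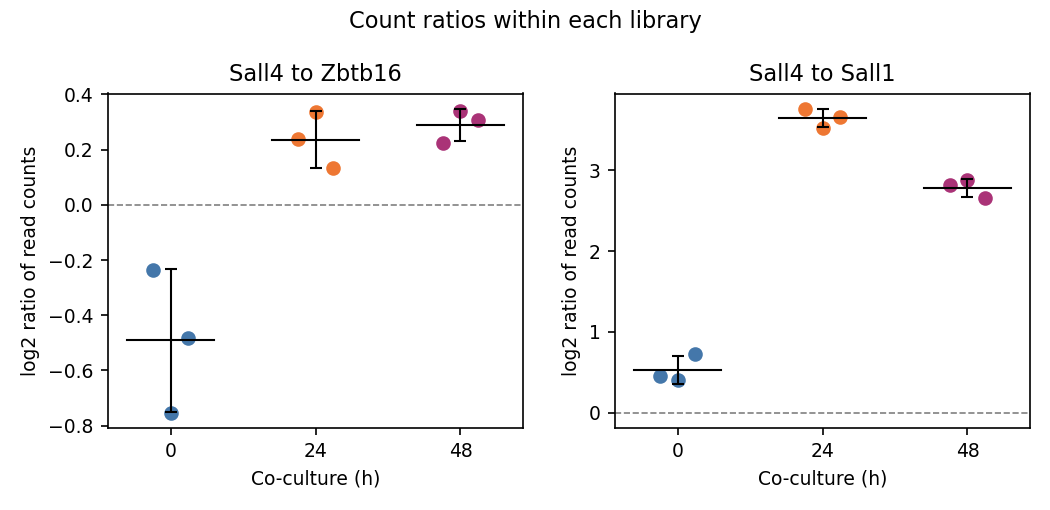
Log2 ratio of Sall4 counts to Zbtb16 counts (left) and to Sall1 counts (right) in each library (points), by hours of co-culture, with the mean as a line, error bars of 1 SD (n = 3) and a dashed line where the counts are equal. As a plain ratio, that to Zbtb16 goes from 0.593 to 0.849 at 0 h to 1.10 to 1.26 at 24 h, and that to Sall1 peaks at 24 h with 11.5 to 13.5.

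For each member, the 2 protein-coding genes with the most similar course over the 9 libraries were taken from 10401 candidates with at least 10 CPM in 1 group, by the root mean square (RMS) difference of their centred log2 CPM. For Sall3 these were Dusp6, a phosphatase of ERK, with an RMS difference of 0.298, and Spry4, an inhibitor of receptor tyrosine kinase signalling, with 0.327. The mean CPM of Dusp6 over the times was 315, 5.92 and 5.39, and that of Spry4 was 115, 1.51 and 1.65. For Sall1 they were Mt1, a metallothionein (0.154, with 377, 77.9 and 99.3 CPM), and Prickle1, a planar cell polarity gene (0.167, with 69.3, 14.1 and 16.8 CPM). For Sall2 they were the homeobox gene Alx4 (0.117) and Fam189a2 (0.142), with 23.6 and 32.3 CPM at 0 h and 4.21 and 5.99 CPM at 48 h. The closest genes to Sall4 were Cluh, an RNA-binding protein for mRNAs of mitochondrial proteins (0.0593), and Abca3, a lipid transporter (0.0654). Those of Zbtb16 were 8030474K03Rik (0.0692) and Vav2, a guanine nucleotide exchange factor (0.0696). The RMS difference is a description over libraries that share the 3 time groups.

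Of 15 NuRD subunits, the complex that SALL proteins recruit, 2 were called higher and 2 lower at 24 h against 0 h, with a median log2 fold change of -0.025 beside 0.005 for all genes, of which 25.5% were called. Mbd3 rose by 1.05 (adjusted p = 0.00808, edgeR) and Chd5, an ATPase, by 0.53. Chd4, the main ATPase and the most abundant subunit, fell from 1317 ± 124 CPM to 820.3 ± 22.7 CPM (-0.67, adjusted p = 0.00458, edgeR), and Cdk2ap1 fell as well (-0.51). At 48 h against 0 h, 0 were called higher and 3 lower, namely Cdk2ap1 (-0.90), Chd4 (-0.86, at 724 ± 13.1 CPM) and Mta2 (-0.53), with a median of -0.172 beside 0.017. From 24 h to 48 h, 8 of 15 were called lower and 1 higher, beside 12.7% lower and 8.61% higher among all genes, with a median of -0.191 beside -0.005. The largest of these changes were those of Chd3 (-0.57), Chd5 (-0.49), Mbd3 (-0.44) and Cdk2ap1 (-0.39), and that of Chd4 was -0.19. These counts depend on single libraries and settings. In fits that leave out a library, the call of Mta2 at 48 h against 0 h was lost in 2 of 6 (adjusted p up to 0.0688, edgeR). That of Chd5 from 24 h to 48 h was also lost in 2 of 6 (adjusted p up to 0.071, edgeR). At 24 h the call of Chd5 was lost in 5 of 6 fits that leave out a library, kept without 0 h replicate 3, and that of Cdk2ap1 in 4 of 6, kept without 0 h replicate 1 or 3 (adjusted p up to 0.166 and 0.0766, edgeR). Between 24 h and 48 h the call of Chd4 was lost in 6 of 6 such fits and kept under 2 of 8 alternatives, with adjusted p up to 0.296, and with all 9 libraries in 1 fit those of Chd5, Mbd3 and Cdk2ap1 were lost as well (adjusted p = 0.0997, 0.217 and 0.0529, edgeR).

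Of 10 corepressors and chromatin partners described for PLZF, 2 were called lower and 0 higher at 24 h. At 48 h the list had 3 genes called lower and 1 called higher, and from 24 h to 48 h it had 1 each way, beside 25.5%, 31.6% and 21.3% of all genes called in the 3 comparisons. Their median log2 fold changes were 0.011, 0.07 and 0.01, beside 0.005, 0.017 and -0.005 for all genes. Tbl1xr1, a subunit of NCoR corepressor complexes, fell by 0.81 at 24 h and by 0.71 at 48 h on the log2 scale, and the deacetylase Hdac4 by 0.56 and 0.66. The Tbl1xr1 call was lost in 4 of 6 fits that leave out a library at 24 h (kept without 0 h replicate 1 or 3) and in 5 of 6 at 48 h (kept without 0 h replicate 3), with adjusted p up to 0.107 and 0.149 (edgeR). Hdac3, the deacetylase of the same complexes, fell by 0.69 at 48 h. Sin3a, a corepressor scaffold and the most abundant of the list, was not called in any comparison (0.20, 0.03 and -0.17). Bmi1, a Polycomb protein, rose by 1.03 at 48 h against 0 h and by 0.85 from 24 h to 48 h. The former call was lost without 0 h replicate 2 or any 48 h library (0.97 to 1.07, adjusted p up to 0.104, edgeR), and the latter with all 9 libraries in 1 fit (adjusted p = 0.083).

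Of 7 factors described as partners of SALL4, 5 were tested, and 3 were called lower and 1 higher at both later times against 0 h, with medians of -0.872 and -1.531, beside 25.5% and 31.6% of all genes called. Sox2, a pluripotency factor, had 26.2 ± 5.69 CPM at 0 h, 1.59 ± 0.516 CPM after 24 h and 1.12 ± 0.0811 CPM after 48 h (log2 fold changes -4.03 and -4.55). The nuclear receptor gene Esrrb (-0.995 and -1.53) and Pou5f1, which encodes OCT4 (-0.87 and -1.62), fell at both times and fell again from 24 h to 48 h, by 0.53 and 0.75. Dnmt3b, a DNA methyltransferase that rises in differentiating spermatogonia, was higher by 0.94 at 24 h and by 0.36 at 48 h, with a fall of 0.58 between them. Calls lost without 0 h replicate 2 or any 1 library of the later group were that of Dnmt3b at 48 h against 0 h (0.33 to 0.38, adjusted p up to 0.12, edgeR) and that of Pou5f1 at 24 h against 0 h (-0.92 to -0.82, adjusted p up to 0.0729, edgeR). Dnmt3a was not called in any comparison (-0.25, -0.12 and 0.13).

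Of 5 genes described as targets of SALL4 or PLZF, 1 was called in each direction at 24 h. At 48 h the calls were 2 higher with 1 lower, and from 24 h to 48 h they were 1 higher with 2 lower. Among all genes, 25.5%, 31.6% and 21.3% were called in the 3 comparisons. Median log2 fold changes of the 5 genes were -0.081, 0.068 and -0.002, beside 0.005, 0.017 and -0.005 for all genes. Kit had 8.47 ± 1.26 CPM at 0 h, rose to 567 ± 34.5 CPM after 24 h, and had 329.5 ± 7.66 CPM after 48 h (log2 fold changes 6.08 and 5.28, and -0.79 between 24 h and 48 h). Its highest group is thus 24 h, and a link between the level of Kit and that of Sall4 or Zbtb16 was not tested. Ddit4, an inhibitor of the mTORC1 kinase that PLZF has been described to activate, fell by 1.73 at 24 h and by 3.35 at 48 h, from 253 ± 87.9 CPM to 75.3 ± 12.5 and 24.8 ± 3.53. Bmi1 was the other gene called higher at 48 h.

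Among the other genes of the ZBTB family, which share the BTB domain and zinc fingers of PLZF, 38 of 39 were tested. At 24 h against 0 h, 3 were called higher and 3 lower, beside 11.4% higher and 14.2% lower among all genes. At 48 h against 0 h the calls were 10 higher with 5 lower, beside 13.0% and 18.5%. From 24 h to 48 h they were 12 higher with 2 lower, beside 8.61% and 12.7%. Median log2 fold changes were 0.062, 0.338 and 0.135, beside 0.005, 0.017 and -0.005 for all genes. The other 24 were not called in that comparison. Zbtb7b, a lineage factor of T cells, had the largest fall (-1.33 at 24 h and -1.80 at 48 h), and Zbtb42 rose by 1.33 and 1.06 at low levels of 2.42 to 6.05 CPM. The 24 h call of Zbtb7b was lost in 2 of 6 fits that leave out a library (adjusted p up to 0.0539, edgeR). The largest rise at 48 h against 0 h was that of Zbtb12 (1.25, adjusted p = 0.0196, edgeR). That call was lost in 3 of 6 fits that leave out a library (adjusted p up to 0.0711, edgeR). Zbtb43, the most abundant of them, had 133 ± 2.51 CPM at 0 h, 204 ± 6.25 CPM after 24 h and 193 ± 5.28 CPM after 48 h (log2 fold changes 0.63 and 0.54). Between 24 h and 48 h, Zbtb20 (0.94), Zbtb41 (0.75) and Zbtb44 (0.53) rose and Zbtb46 (-0.79) fell. With GC and length offsets the values of Zbtb20, Zbtb41 and Zbtb44 were 0.39, 0.36 and 0.22, of which that of Zbtb41 alone was called, and with all 9 libraries in 1 fit none of these 3 rises was called (adjusted p = 0.213, 0.239 and 0.0677, edgeR). Without 24 h replicate 1 or 2 or 48 h replicate 1 or 3, the calls of Zbtb20 and Zbtb41 were lost (adjusted p up to 0.0845 and 0.0841, edgeR).

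**Figure D5:**
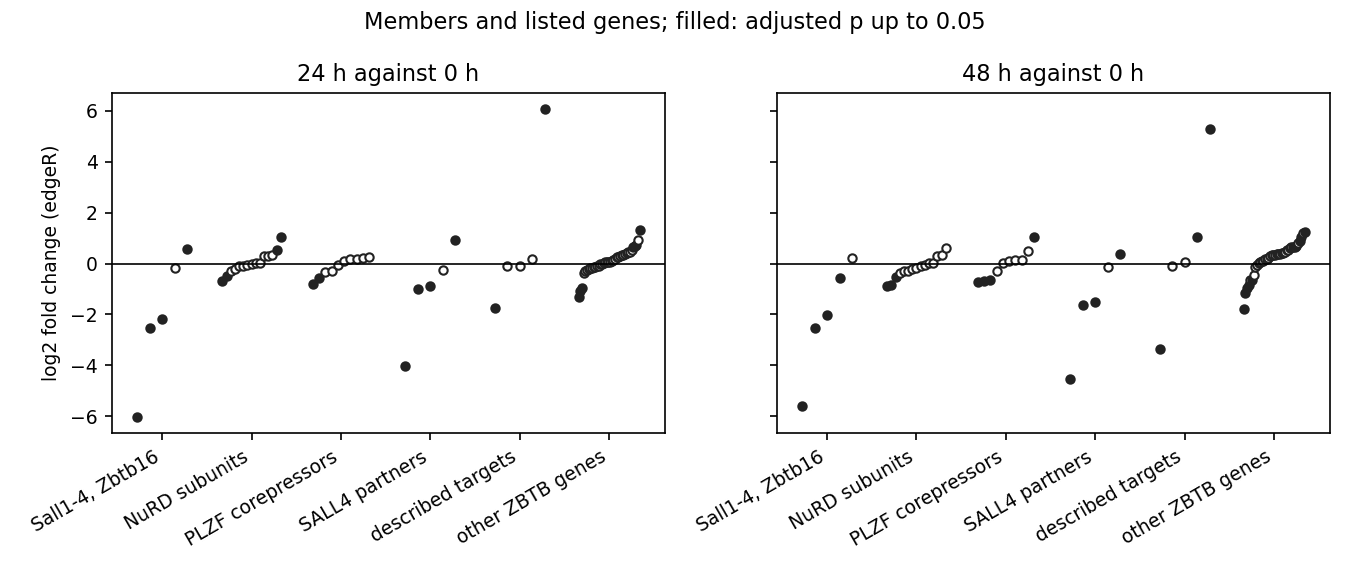
Log2 fold changes from edgeR (y axis) of the 5 members and of the genes of the 5 lists (x axis, sorted within a list) at 24 h and 48 h against 0 h, with 1 point per gene, filled at an adjusted p of up to 0.05. The SALL4 partners have medians of -0.872 and -1.531, and the point above 5 among the described targets is Kit (6.08 and 5.28).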

How the data were processed

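Per the submitters' notes the authors trimmed reads with fastp, aligned them to GRCm38 with HISAT2 and counted them with featureCounts, and they deposited counts per gene, not normalized, for each library; versions and strand setting are not given in the sources used here. Names, positions and exon lengths came from GENCODE M21, which held 45229 of the 46078 identifiers. CPM and FPKM were computed here with TMM factors over all 9 libraries. FPKM used the exon union length, with the length of the longest transcript as an alternative. Each comparison was fitted on its own 6 libraries with filterByExpr and TMM in edgeR 4.0.16 (R 4.3.3). The procedure was tested on simulated data. Alternatives were DESeq2 1.42.0, its size factors, library size alone, 1 fit over all 9 libraries, no filter, a minimum of 10 counts per library, offsets for GC content and length, the replicate number as a block, and leaving out each library.

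Beside the members, named genes were the 2 most similar genes per member and, of each list, up to 4 called genes with the largest change, Kit and the most abundant. Genes under 3 counts in each library would have been at the floor. 1 gene of a list is not reported here and was left out of its list. The members and lists were chosen with earlier results of these data known. No source says that the replicates were separate cultures, so p-values may measure technical spread only. Figures were drawn with matplotlib 3.10.9.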

Additional observations from a re-analysis of the deposited data

How the results depend on the processing

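The calls of Sall1, Sall2, Sall3 and Sall4 at 24 h against 0 h, of Sall1, Sall2 and Sall3 at 48 h against 0 h, and of Sall1 from 24 h to 48 h, kept direction and side of the threshold under all 8 alternatives and in the fits without 1 library, with Sall4 at 24 h between 0.54 and 0.66 in the latter (adjusted p 0.00334 to 0.0491, edgeR). Library size alone ended the call of Zbtb16 at 48 h against 0 h (-0.46, adjusted p = 0.0533, edgeR), moved the median of all genes by 0.113 and 0.11 at 24 h and 48 h and the share of higher calls from 44.5% to 57.1% and from 41.2% to 52.8%, and reversed 8030474K03Rik at 24 h (0.039). GC and length offsets called Sall4 at 48 h against 0 h (0.36, adjusted p = 0.00896, edgeR). With all 9 libraries in 1 fit, 1043 genes were called between 24 h and 48 h instead of 3732, and Sall4 (-0.35, adjusted p = 0.0746) and Zbtb16 (-0.40, adjusted p = 0.11, edgeR) were not. In that fit the SE of Sall4 was 0.0987 and that of Zbtb16 0.129, against 0.0848 and 0.0677 with 6 libraries. The cause of the lost calls was not tested. Without 1 library, called genes ran from 2607 (24 h replicate 2 left out) to 6023 (0 h replicate 3) at 24 h against 0 h, from 3471 (48 h replicate 1) to 7116 (0 h replicate 1) at 48 h against 0 h, and from 1857 (48 h replicate 1) to 4356 (48 h replicate 2) between 24 h and 48 h. Zbtb16 at 48 h against 0 h ran from -0.71 to -0.46 (adjusted p 0.00226 to 0.103, edgeR), with the call lost without 0 h replicate 2 or any 48 h library, and Sall4 from 24 h to 48 h from -0.43 to -0.30 (adjusted p 0.00605 to 0.102, edgeR), with the call lost without 24 h replicate 1 or 2 or 48 h replicate 1 or 3. Without 0 h replicate 1, Zbtb16 at 24 h was -0.29 (adjusted p = 0.0692, edgeR). Sin3a at 48 h against 0 h ran from -0.046 to 0.10 and reversed without 0 h replicate 3. Correlations of the deviations of same-numbered libraries were -0.261 to 0.018, -0.28 to 0.196 and -0.057 to 0.099 in the 3 comparisons. Those of differently numbered libraries ran from -0.392 to 0.38, so this check cannot tell weak pairing from none. A replicate block called 3007, 4013 and 2497 genes and changed no call of a member. Calls of Chd5, Cdk2ap1 and Tbl1xr1 at 24 h, of Tbl1xr1 and Dnmt3b at 48 h and of Chd4 from 24 h to 48 h were lost with it.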
